A study of Mus musculus with 24 samples.

Results

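The 84 genes described here encode nuclear subunits of the mitochondrial respiratory chain and of ATP synthase, with a few closely named factors. They were chosen by symbol from the 12393 mouse genes measured on 24 Affymetrix arrays, as every gene whose symbol begins with Nduf followed by a, b, c, s or v, is Sdha, Sdhb, Sdhc or Sdhd, begins with Uqcr, begins with Cox and a digit between 4 and 8, or begins with Atp5. By textbook assignment, 33 belong to complex I, 4 to complex II, 8 to complex III, 17 to complex IV (Ndufa4 among them) and 17 to complex V, and 5 are Ndufaf assembly factors of complex I. The name rule also takes in Cox7a2l, which joins complexes III and IV into supercomplexes. The rule uses gene names only.

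Complexes I to IV of the inner mitochondrial membrane pass electrons from NADH and succinate to oxygen, and complexes I, III and IV pump protons as they do so. Complex V, the ATP synthase, lets the protons back and makes ATP. Most subunits are encoded in the nucleus, a smaller set in mitochondrial DNA. Several complex IV subunits come in paired forms, one general and one of heart and skeletal muscle or of testis. In the cerebellum, mature neurons rely on oxidative phosphorylation, while granule neuron precursors and medulloblastomas driven by the Hedgehog pathway are known for high glycolysis.

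Cultures were 3 SMB lines, SMB21, SMB55 and SMB56, grown as neurospheres in DMEM/F12 medium with B27 and derived from spontaneous medulloblastomas of Ptch+/- mice. The RAS group holds 7 arrays of RAS transformed SMB cells (3 of SMB21, 2 of SMB55, 2 of SMB56), with the form of RAS unstated. The GF group holds 1 array per line, of SMB cells grown with bFGF at 20 ng/mL, EGF at 20 ng/mL and heparin at 0.2% for more than 3 weeks. Parental SMB cells have 8 arrays (4 of SMB21, 2 of SMB55, 2 of SMB56). The tissues were 3 primary medulloblastomas (MB), 1 adult cerebellum, and 2 cerebella of postnatal day 6 (P6). Tumors and lines are labelled Ptch1 mutant and adult, and the cerebella wild type. The age label of P6 replicate 2 names an early embryonic stage and conflicts with its title, which was followed. The replicates are titled biological, with no word on the animals or cultures behind them, so p-values measure the spread between these arrays. The single adult array is assumed to vary like the other groups.

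Each level below is log2(intensity + 16) of 1 probe set per gene, and each difference is between such levels. A gene is called at an adjusted p under 0.05 (limma, Benjamini-Hochberg over 12393 genes). Counts at an unadjusted p under 0.05 are of members only. The share of all genes under that cutoff was not counted, so whether such counts exceed the background is not known. Replicates of some groups were far apart. The SD of the log2 difference over all genes was 0.785 between parental SMB56 replicates 1 and 2, the largest of any pair. It was 0.59 to 0.64 among the RAS SMB21 arrays. Parental SMB21 replicate 1 stood apart from the other 3 replicates: this SD was 0.566 to 0.587 against them, and 0.203 to 0.297 among them. Without it, the calls of members were 23 in place of 28 for RAS against parental cells, 4 in place of 3 for GF against parental cells, 19 as before for RAS against GF, 11 in place of 12 for RAS in SMB21, and 7 in place of 4 for differences between parental lines. Granule neuron markers were present in each tissue. Summed over 8 genes, they gave intensities of 38901 to 51076 in MB, 45249 in the adult and 37674 to 40032 in P6 cerebella. Single genes of this list were less alike than the sum. Gabra6 had 12.60, 5.89 and 9.10 in MB replicates 1, 2 and 3, 13.74 in the adult, and 7.80 and 8.66 at P6. Cbln3 had 8.87, 6.10 and 6.46 in MB, 10.34 in the adult, and 5.83 and 5.99 at P6. Summed Purkinje cell markers (5 genes) gave 105721 in the adult and 39460 to 40466 in P6 cerebella. In MB they gave 1711 to 2802, within the 967 to 5993 of parental SMB cells.

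Of the 84 members, 77 had a mean signal at or above that of the median gene (8.36), and 0 lay below the 25th percentile of genes (6.29). Signal was below the median gene for Cox7a1, Cox4i2, Cox6b2, Cox8b, Cox6a2, Cox8c and Cox7c, between 6.39 and 8.12, and changes of such genes are compressed. The table used here holds no detection calls, so no fold is given for a group at about the 25th percentile. Over the 24 arrays the median member had an SD of 0.34, against 0.43 for the median of all genes. The most variable were Cox8b (SD 0.95, levels 5.93 to 9.62), Cox7a1 (SD 0.88), Ndufs4 (SD 0.85) and Cox6b2 (SD 0.77), and the steadiest were Cox4i2 and Cox5a (SD 0.14 each).

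Taken as 1 number per array, the median deviation of the 84 genes from their own means was -0.34 to -0.08 in the 7 RAS arrays. It was 0.00 to 0.13 in the 3 GF arrays and -0.08 to 0.22 in the 8 parental arrays. Among tissues it was 0.01, -0.14 and -0.06 in MB, 0.63 in the adult cerebellum, and 0.23 and 0.33 in the P6 cerebella. The adult array was thus the highest of all 24, the P6 arrays came next, and every RAS array lay below 0. The RAS arrays lay below all parental arrays, the nearest being parental SMB56 replicate 2 at -0.08, next to the highest RAS value.

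**Figure D1:**
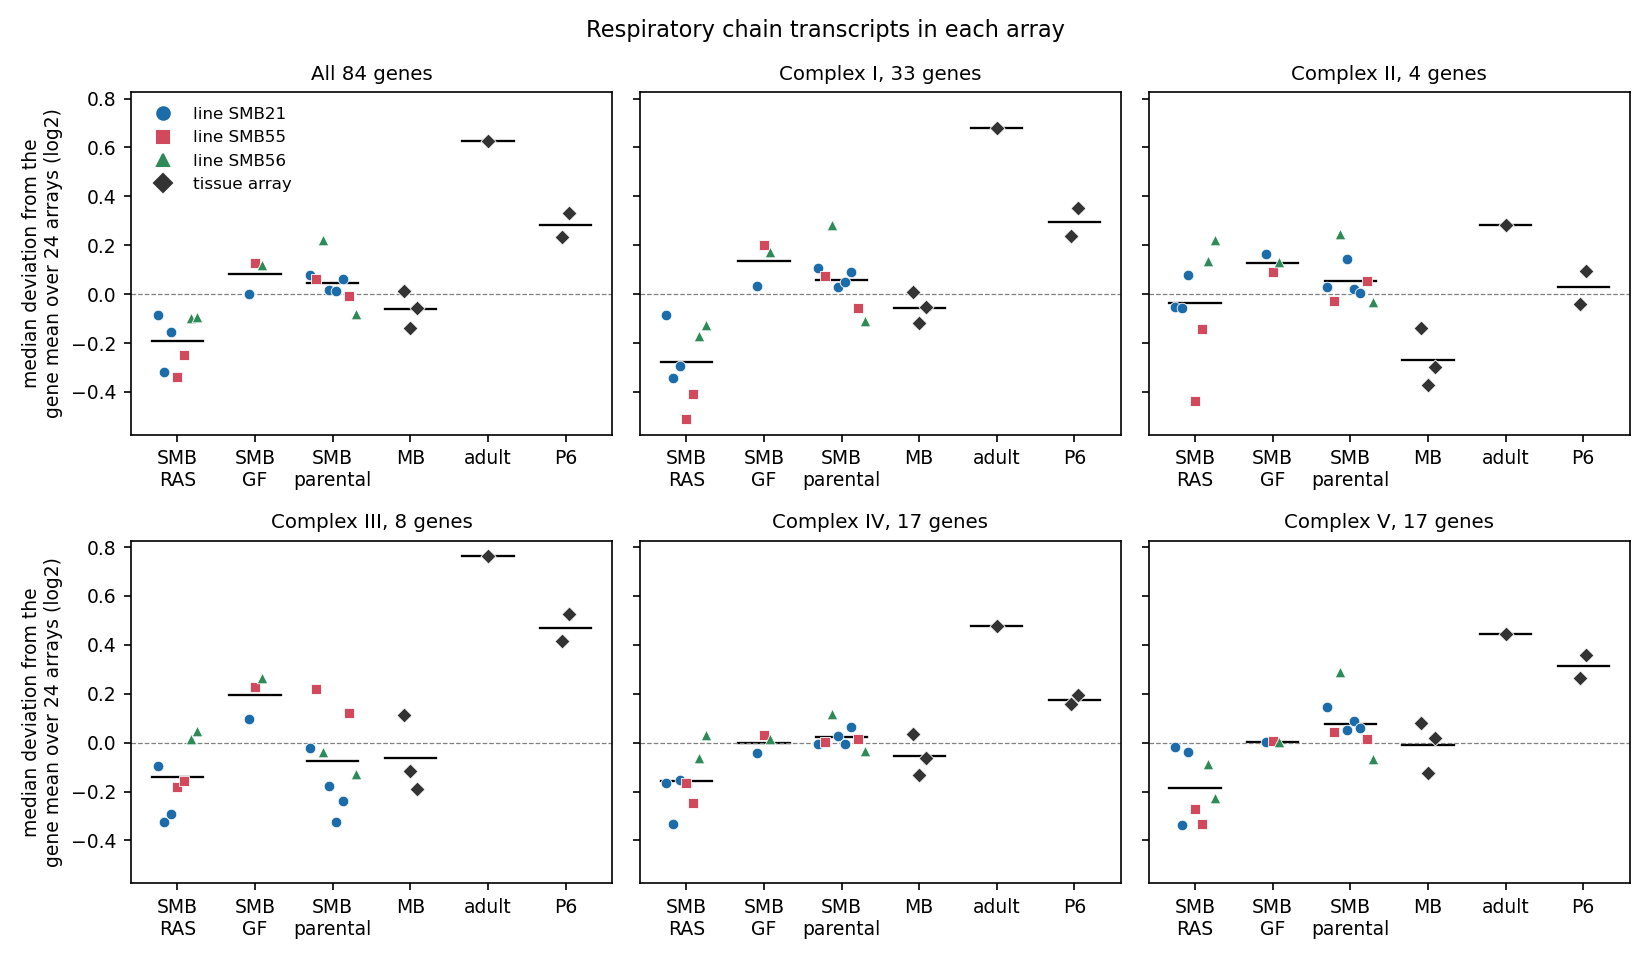
Median deviation of the member genes from each gene's mean over 24 arrays (log2, vertical axis), for all 84 genes and for each complex, with 1 point per array coloured by SMB line, groups from left to right as RAS, GF and parental SMB cells, MB, adult and P6 cerebellum, and bars at group means. The adult array is the highest in the panel of all members at 0.63, and the RAS arrays lie between -0.34 and -0.08.

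Primary medulloblastomas had lower levels of respiratory chain genes than the adult cerebellum in every complex. Of the 84 members, 47 were lower in MB and 0 higher, while 15.7% of all genes were called lower and 15.2% higher. The median difference was -0.60 for members and 0.03 for all genes, and 6 members lay above 0. By complex, 20 of 33 genes of complex I were lower, 3 of 4 of complex II, 5 of 8 of complex III, 8 of 17 of complex IV, 8 of 17 of complex V and 3 of 5 assembly factors. The median difference was -0.61 in complex I, -0.61 in complex II, -0.77 in complex III, -0.50 in complex IV and -0.52 in complex V. With each array centred on its median, which shifts the median of all genes by 0.14, 29 members were called lower and 0 higher. Leaving out MB replicate 3 gave 28, and leaving out either P6 array gave 35. In bulk tissue, fewer cells of a type and less RNA per cell cannot be told apart.

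In complex I, Ndufv3, a small subunit of the NADH-binding module, had levels of 11.74, 11.58 and 11.58 in MB, against 13.02 in the adult. It was 2.61-fold lower (-1.38, SE 0.18, adjusted p = 0.001609). Ndufv1, the flavoprotein that takes electrons from NADH, fell by 0.92 (SE 0.17, adjusted p = 0.006799), and Ndufs1, the largest iron-sulfur subunit, fell by 1.15 (SE 0.32, adjusted p = 0.0319). Ndufb10, a subunit of the membrane arm, had 11.24, 10.38 and 11.01 in MB and 12.25 in the adult (-1.38, SE 0.30, adjusted p = 0.0134). The MB arrays were all below the adult array for these 4 genes. The Ndufs1 call was lost without either P6 array or without MB replicate 2 or 3 (adjusted p between 0.002513 and 0.0756 over all alternatives), and for Ndufb10, Ndufv1 and Ndufv3 each such leave-one-out kept the call. Ndufab1, the mitochondrial acyl carrier protein, fell by 0.59 with the chosen probe set, but the mean of its probe sets differed by -0.04. Of 44 further probe sets of called genes in this comparison, 33 had the same sign and 24 of these were called. The others were of Ndufa12, Uqcrq, Ndufs8, Cox6c, Ndufab1, Cox5b, Cox8a, Atp5c1 and Ndufb9, all but that of Cox6c with a mean signal below the median gene. Those of Ndufa12 (0.67) and Cox8a (0.55), and 1 of Cox5b (0.45), passed the test in the opposite direction, adjusted over probe sets.

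In complex II, Sdha, the flavoprotein that oxidises succinate, had levels of 11.43, 10.94 and 11.31 in MB, 12.52 in the adult and 11.34 and 11.47 at P6. Sdha was 2.44-fold lower in MB than in the adult (-1.29, SE 0.24, adjusted p = 0.00676). MB and P6 arrays overlapped (-0.17, adjusted p = 0.5835), so the adult array alone stood high. The iron-sulfur subunit Sdhb (-0.62) and the membrane anchor Sdhc (-0.59) were also lower in MB than in the adult, and the anchor Sdhd was not called (-0.39, adjusted p = 0.1094). Without MB replicate 3 Sdhb lost its call (-0.59).

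In complex III, Uqcr10, a small subunit, had 11.82, 11.82 and 11.66 in MB, 12.92 in the adult and 12.48 and 12.62 at P6. It was lower in MB than in the adult (-1.15, SE 0.15, adjusted p = 0.001378) and than at P6 (-0.78, SE 0.12, adjusted p = 0.007928), with no overlap. The core protein Uqcrc1 had 11.45, 11.16 and 11.30 in MB and 12.43 in the adult (-1.13, SE 0.23, adjusted p = 0.00945). The Rieske iron-sulfur protein Uqcrfs1 was not called (-0.44, adjusted p = 0.1438). In complex V the catalytic subunit Atp5b fell by 0.78, a call lost without either P6 array or MB replicate 3, and its partner Atp5a1 differed by -0.32 (adjusted p = 0.1912). Of the 3 genes for the c subunit of the proton rotor, which encode the same mature protein, Atp5g1 (-1.05, SE 0.22) and Atp5g3 (-0.74, SE 0.17) were lower in MB, and Atp5g2 differed by -0.07 (adjusted p = 0.7391).

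**Figure D2:**
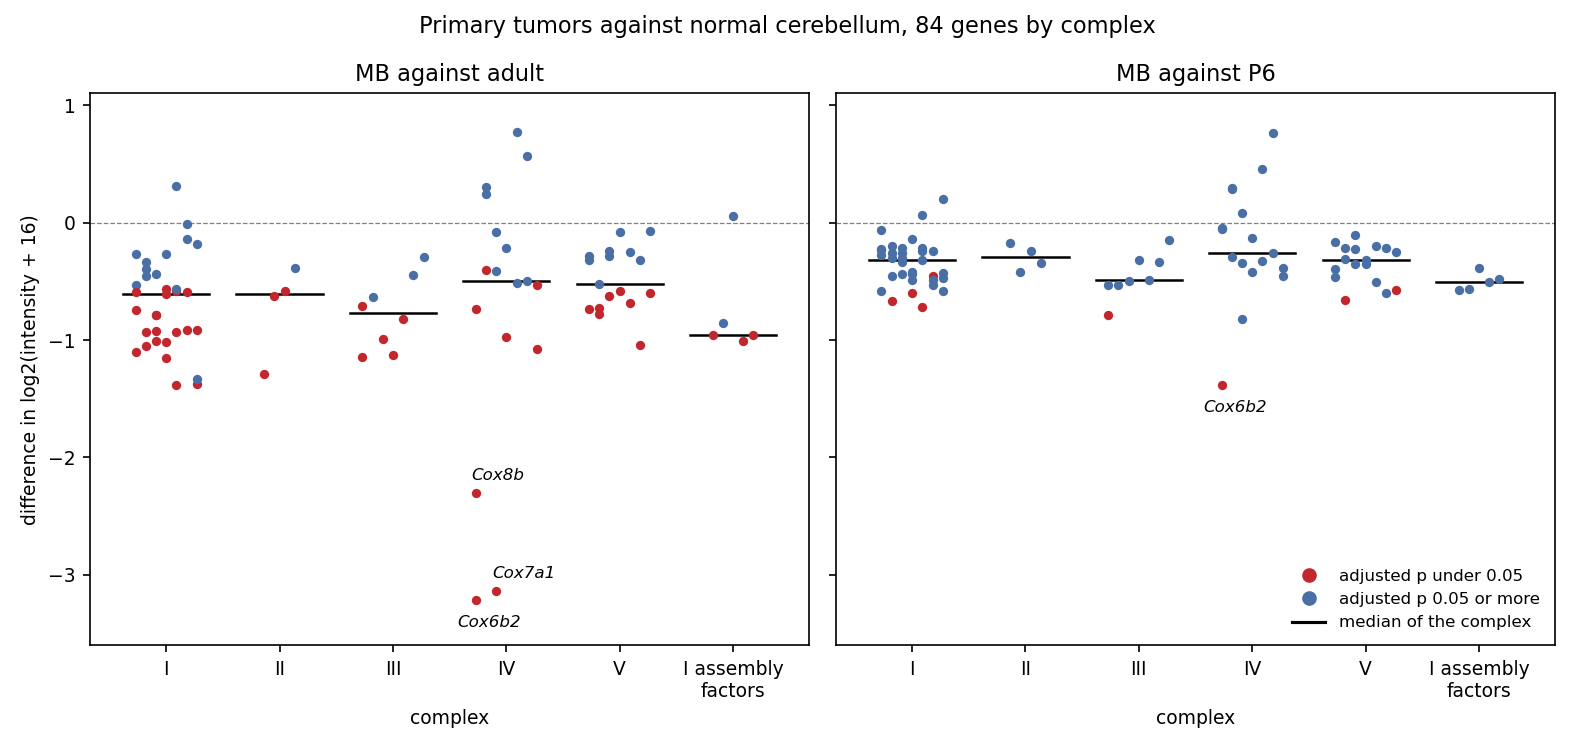
Difference of each member gene (log2, vertical axis) by complex, for MB against the adult cerebellum and for MB against P6 cerebella, with called genes in red and a black line at the median of each complex. Most points lie below 0 in both panels, and Cox6b2, Cox7a1 and Cox8b fall far below the rest against the adult, by 3.21, 3.14 and 2.30.

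Complex IV held the 3 members with the largest differences on this scale between MB and adult cerebellum, each a tissue isoform that was dim in MB and among the tissues reached the median gene (8.36) in the adult array alone. Cox6b2, the testis form of a subunit on the intermembrane side of the enzyme, had levels of 6.20, 5.90 and 6.04 in MB, 9.26 in the adult and 7.33 and 7.54 at P6. Cox7a1, a heart and muscle form, had 6.37, 5.64 and 5.56 in MB, 8.99 in the adult and 6.36 and 6.99 at P6. Cox8b, another heart and muscle form, had 6.17, 6.35 and 6.20 in MB, 8.54 in the adult and 6.24 and 6.35 at P6. The adult array was the highest tissue array for all 3 genes, and MB and P6 arrays were apart for Cox6b2 only.

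MB against adult, Cox6b2 differed by -3.21 (SE 0.28, adjusted p = 0.0002599), Cox7a1 by -3.14 (SE 0.38, adjusted p = 0.001067) and Cox8b by -2.30 (SE 0.55, adjusted p = 0.01955). All but 2 of these 9 MB levels lay below the 25th percentile of genes (6.29), so the size of these differences depends on the background there. Their general counterparts differed less: Cox8a, with 12.44, 12.08 and 12.31 in MB and 13.35 in the adult, fell by 1.08 (SE 0.19, adjusted p = 0.006136), or by 0.53 with the mean of its probe sets. Cox6b1 fell by 0.53, a call lost without any one P6 or MB array, and Cox7a2 differed by -0.22 (adjusted p = 0.2788). The difference between an isoform and its counterpart was not tested. Cox4i1, the general form of a regulatory subunit, fell by 0.73 (SE 0.14, adjusted p = 0.008086), and Cox4i2, its lung form, differed by 0.31 (adjusted p = 0.1663). Ndufa4 differed by -0.08, Cox5a by -0.41, Cox6a1 by -0.51, Cox6a2 by -0.50 and Cox8c by 0.24, all uncalled. Cox7a2l had the highest difference of any member, at 0.78 (adjusted p = 0.1462). A list of 13 muscle genes had 0 calls between MB, adult and P6, with summed intensities of 642 to 6516 in MB (its top from Tnnc2, at 12.54 in MB replicate 1), 702 in the adult and 615 to 664 at P6.

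**Figure D3:**
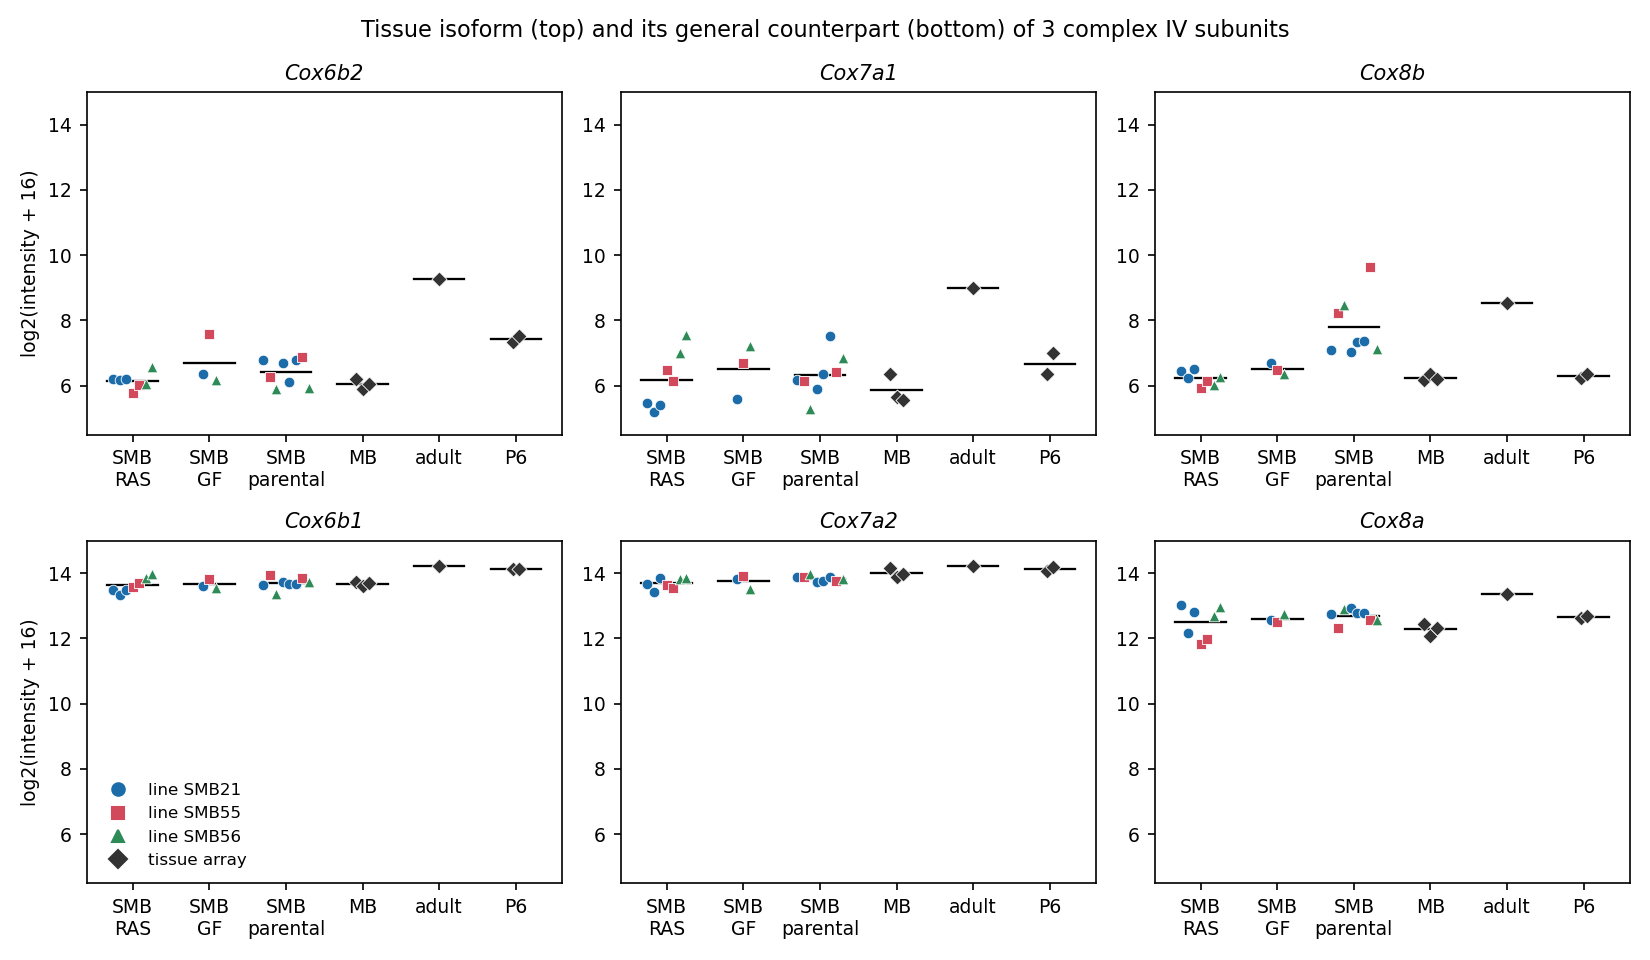
Level of Cox6b2, Cox7a1 and Cox8b (top) and of the general forms Cox6b1, Cox7a2 and Cox8a (bottom) on each array (log2 of intensity plus 16), with groups from left to right as RAS, GF and parental SMB cells, MB, adult and P6 cerebellum and a line at each group mean. The adult array stands at 9.26, 8.99 and 8.54 in the top row, and parental SMB cells spread between 7.04 and 9.62 for Cox8b.

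Adult cerebellum also had higher levels than P6 cerebella for 5 members and lower for 0, against 8.85% of all genes higher and 10.3% lower. These were Cox7a1 (2.32, SE 0.40, adjusted p = 0.008291), Cox8b (2.24, SE 0.59, adjusted p = 0.03885), Cox6b2 (1.82, SE 0.30, adjusted p = 0.00676), Sdha (2.16-fold, 1.11, SE 0.25, adjusted p = 0.02354) and Cox4i1 (1.61-fold, 0.69, SE 0.15, adjusted p = 0.02099). Cox4i1 had a level of 14.29 in the adult, against 13.53 and 13.68 at P6. The share of members called higher, 5 of 84, was not above the background, while 73 of the 84 differences were above 0, with a median of 0.27 against 0.03 for all genes. Without either P6 array, Cox6b2 and Cox7a1 alone were called, Cox8b was also lost without any one MB array, and there were 9 calls without line SMB21 or line SMB56. A fit of these 3 cerebella alone called 41 members, 38 higher and 3 lower in the adult, with 25.8% of all genes called higher and 25% lower; its spread comes from the P6 pair alone. This comparison shares the adult array with the one above.

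Promoter sequence is shown for the members that stood high in the adult array and had a RefSeq promoter entry (GRCm38.p6), and for Atp5g2, the c subunit gene not called between MB and the adult. Each line holds the 250 bases before the start of transcription, on the strand of the gene, with capitals marking matches to the binding motif of NRF1, a factor known to regulate respiratory genes (GCGCA, any base, then GCGC, on either strand). Sdha lies at chr13:74350241-74350490 (minus strand), Atp5g2 at chr15:102671048-102671297 (minus), Cox6b2 at chr7:4753095-4753344 (minus), Cox7a1 at chr7:30183921-30184170 (plus) and Cox8b at chr7:140900447-140900696 (minus).
Sdha: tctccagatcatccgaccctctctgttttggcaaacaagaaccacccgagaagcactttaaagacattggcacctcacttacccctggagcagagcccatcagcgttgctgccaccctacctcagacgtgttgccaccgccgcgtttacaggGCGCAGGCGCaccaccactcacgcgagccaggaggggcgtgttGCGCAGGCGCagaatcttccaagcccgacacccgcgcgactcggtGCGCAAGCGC
Atp5g2: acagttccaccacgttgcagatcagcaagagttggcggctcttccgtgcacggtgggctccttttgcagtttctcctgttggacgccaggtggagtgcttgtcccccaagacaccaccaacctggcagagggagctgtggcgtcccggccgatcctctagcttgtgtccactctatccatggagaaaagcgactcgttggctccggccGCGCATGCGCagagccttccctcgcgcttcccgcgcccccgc
Cox6b2: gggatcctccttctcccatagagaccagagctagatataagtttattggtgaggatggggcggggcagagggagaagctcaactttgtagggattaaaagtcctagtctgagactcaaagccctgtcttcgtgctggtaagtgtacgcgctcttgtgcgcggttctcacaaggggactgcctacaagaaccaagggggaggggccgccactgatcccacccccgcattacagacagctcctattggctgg
Cox7a1: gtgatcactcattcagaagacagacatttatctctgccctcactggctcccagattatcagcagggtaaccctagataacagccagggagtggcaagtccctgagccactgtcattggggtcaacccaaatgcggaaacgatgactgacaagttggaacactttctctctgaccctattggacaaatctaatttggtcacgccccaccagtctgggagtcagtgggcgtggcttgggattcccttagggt
Cox8b: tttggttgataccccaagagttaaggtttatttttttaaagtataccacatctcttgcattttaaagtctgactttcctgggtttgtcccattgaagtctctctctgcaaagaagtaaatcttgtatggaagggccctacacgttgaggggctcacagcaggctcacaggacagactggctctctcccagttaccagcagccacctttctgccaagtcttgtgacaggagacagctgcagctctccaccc

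In these windows Sdha held 3 matches and Atp5g2 held 1, while Cox6b2, Cox7a1 and Cox8b held none of the 5 motifs searched. Of the 84 members, 70 had a promoter entry, and 11 of the 70 (15.7%) held an NRF1 match, against 7.63% of 9882 genes with such an entry. The 11 were Atp5c1, Atp5g2, Atp5h, Atp5k, Cox6a1, Ndufa5, Ndufa8, Ndufaf4, Ndufs5, Sdha and Sdhd. The ETS motif CCGGAAGT, bound by GABPA, was in 3 (4.29%, against 5.37%), the YY1 motif AAGATGGC in 1 (1.43%, against 2.13%), the estrogen-related receptor motif TCAAGGTCA in 1 (1.43%, against 0.33%) and the E-box CACGTG in 6 (8.57%, against 9.19%), searched on both strands. A match is a description of the letters and no binding site.

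Against P6 cerebella, MB had 8 members lower and 0 higher, with 6.68% of all genes called lower and 4.3% higher. The median difference of the members was -0.33, against 0.05 for all genes, and 7 members lay above 0. Besides Cox6b2 (-1.39, SE 0.22, adjusted p = 0.01094) and Uqcr10, the calls were Ndufv3 (-0.72), Ndufs8, an iron-sulfur subunit (-0.67), Atp5o, the stalk subunit that holds the ATP synthase head (-0.66), Ndufb5 (-0.60), Atp5g2 (-0.58) and Ndufb1 (-0.46). Ndufs8 had 12.81, 12.46 and 12.86 in MB, against 13.35 and 13.40 at P6. Atp5g2 had 12.11, 11.99 and 12.17 in MB, against 12.60 and 12.74 at P6, and 12.16 in the adult. With the mean of its probe sets Atp5g2 differed by -0.28 (adjusted p = 0.1571), and a dim further probe set each of Atp5g2 (0.01) and Ndufs8 (0.02) had the opposite sign. MB arrays lay below both P6 arrays for these 8 genes. With arrays centred on their medians 2 members were called: Ndufs8, Atp5o, Ndufv3, Ndufb5 and Atp5g2 had adjusted p between 0.05574 and 0.1038, and the share of all called genes that were higher was 61.5%, against 39.2% without centring. The calls rest on few arrays: without P6 replicate 2 there were 0 calls by limma (13 members at an unadjusted p under 0.05), without P6 replicate 1 there was 1 (Ndufb5), without MB replicate 3 there were 4, and without line SMB55 there were 13. The P6 arrays differed less from each other (SD 0.178) than any other pair of one group, and counted as 1 sample they gave 0 calls (17 at an unadjusted p under 0.05).

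Markers of several cell types moved with these tissue comparisons, and their part in the differences was not tested. Against the adult, MB had lower levels of 5 of 5 Purkinje cell markers, 8 of 9 astrocyte markers (summed intensity 5686 to 7602 in MB, 83266 in the adult, 56292 to 57040 at P6) and 6 of 8 oligodendrocyte markers (1685 to 3326 in MB, 55335 in the adult, 15001 to 20785 at P6). Of 10 neuron markers, 3 were lower in MB than in the adult (Nefl, Nefm and Syp) and 1 higher (Dcx, by 5.25). Their summed intensity was 16739 to 28338 in MB, 39950 in the adult and 30229 to 31454 at P6. Of 8 granule neuron markers, 1 was lower in MB than in the adult (Cbln3, -3.20) and 0 higher. All 4 choroid plexus markers were lower in MB than in the adult (176 to 207 in MB, 27344 in the adult, 4278 to 7946 at P6). All 13 proliferation genes were higher in MB than in the adult (50705 to 60348 in MB, 4996 in the adult, 47779 to 48827 at P6). Microglia markers were higher in MB than at P6 for 9 of 12 genes (15765 to 25842 in MB, 19404 in the adult, 6403 to 8397 at P6), and endothelial and pericyte markers lower for 7 of 8 (1172 to 2448 in MB, 2908 in the adult, 10698 to 10823 at P6). MB also had 4 of 5 Purkinje cell, 5 of 9 astrocyte, 4 of 8 oligodendrocyte and 2 of 10 neuron markers lower than P6. In the adult against P6, 4 of 4 choroid plexus, 3 of 8 oligodendrocyte and 3 of 12 microglia markers were higher, and 13 of 13 proliferation genes and 5 of 8 endothelial and pericyte markers lower.

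Outside the 84 genes, 9 of 21 genes of the citric acid cycle and pyruvate use were lower in MB than in the adult and 0 higher, among them Pdk4, the kinase that restrains pyruvate dehydrogenase (-3.47, SE 0.16), and Idh3b, a subunit of isocitrate dehydrogenase (-1.13, SE 0.17). Of 18 regulators of mitochondrial biogenesis, 7 were higher and 3 lower, with 15.2% of all genes called higher and 15.7% lower. The share of regulators lower was thus near the background. Ssbp1, which binds mitochondrial DNA, was higher by 1.46, and Ppargc1a, the coactivator PGC-1alpha, fell by 4.23 (SE 0.72, adjusted p = 0.004783). Mitochondrial ribosome genes were split, with 6 of 74 higher and 8 lower, both shares below the background. ND5, a complex I subunit encoded in mitochondrial DNA, fell by 1.24 (SE 0.21, adjusted p = 0.004866). Against P6, with 6.68% of all genes called lower, 4 of 21 citric acid cycle genes were lower in MB, and 4 of 74 ribosome genes, a share below that background, with 0 of either higher.

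Parental SMB cells, with 1 mean per line, were compared with MB and with P6 cerebella. Against MB, 10 members were higher and 4 lower, with 12.4% of all genes called higher and 8.19% lower. The median difference was 0.09 (0.03 for all genes) and 54 of 84 were above 0, but this direction depends on the scaling: with arrays centred on their medians, 3 members were higher, 14 lower and the median was -0.13. Atp5g2 was higher by 0.79 (SE 0.10, adjusted p = 0.003733). Ndufs4, an accessory subunit of complex I whose loss causes a Leigh-like encephalopathy in mice, fell by 0.90 (SE 0.15, adjusted p = 0.008782). Both calls kept their direction and held under the 17 alternatives run, centring and each left-out array included.

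Ndufs4 had levels of 10.48, 10.21, 10.16 and 10.31 in SMB21, 10.87 and 10.48 in SMB55, 10.96 and 10.24 in SMB56, 11.57, 11.23 and 11.46 in MB, and 11.78 and 12.03 at P6. All 8 parental arrays lay below all MB and P6 arrays. Atp5g2 had 12.96, 12.89, 12.53 and 12.61 in SMB21, 12.76 and 13.16 in SMB55 and 12.92 and 12.95 in SMB56, all above the MB arrays given above. Other higher members were Cox8b (1.74, SE 0.39, adjusted p = 0.02305), Cox6a2, the muscle form of Cox6a1 (0.90), the assembly factor Ndufaf1 (0.86), Ndufv3 (0.68), Atp5g1 (0.61), Ndufa7 (0.60), Atp5o (0.60), Sdhc (0.58) and Uqcrq (0.58). Lower were Cox7c (-1.22, SE 0.26, adjusted p = 0.0206), Atp5md (-0.37) and Ndufa4 (-0.36). Cox7c had 7.07, 7.83, 8.03 and 7.93 in SMB21, 8.38 and 8.55 in SMB55, 7.46 and 7.72 in SMB56, and 8.89, 9.53 and 9.01 in MB, with no overlap. In place of 14 calls there were 8 without P6 replicate 1, P6 replicate 2, MB replicate 3, line SMB21 or line SMB56, and 9 without MB replicate 1. Atp5g2, Ndufa7, Ndufs4, Ndufv3 and Sdhc were called without each P6 array, MB array and line in turn, and Atp5md lost its call without any one of them. Cox8b lost its call without MB replicate 1 or 3 or line SMB56, Cox7c without MB replicate 3, line SMB21 or line SMB56, Ndufa4 without MB replicate 1, line SMB55 or line SMB56, and Ndufaf1 without either P6 array, line SMB21 or line SMB56. Atp5g1, Cox6a2, Atp5o and Uqcrq were each lost without either P6 array, MB replicate 2, MB replicate 3 or line SMB21. Without MB replicate 1 Atp5g1 and Cox6a2 were lost, without line SMB55 Cox6a2 and Uqcrq, and without line SMB56 Atp5g1 and Atp5o. Uqcrq has a dim further probe set of opposite sign (-0.10). In this comparison 12 of 12 microglia markers were lower in SMB cells (summed intensity 488 to 623 in SMB cells, 15765 to 25842 in MB). Also lower were 6 of 10 neuron, 4 of 8 endothelial and pericyte, 2 of 8 granule neuron and 1 of 5 Purkinje cell markers. Of 9 astrocyte markers 2 were lower and 1 higher, and 1 of 8 oligodendrocyte markers and 3 of 13 proliferation genes were higher. The part of these was not tested.

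Cox8b varied more among SMB cells than any other member. It had 7.09, 7.04, 7.33 and 7.38 in parental SMB21, 8.23 and 9.62 in SMB55 and 8.47 and 7.13 in SMB56, against 6.17 to 6.35 in MB and at P6 alike. Every parental array was above every MB and P6 array, and replicates of SMB55 and of SMB56 were over 1 unit apart. Of 13 muscle genes, 1 was higher in SMB cells than in MB (Mylpf, 0.88). The cardiac actin Actc1 had 11.46 and 6.15 in parental SMB56 replicates 1 and 2, 7.30 and 7.31 in SMB55 and 6.02 to 6.21 in SMB21. Whether these levels are linked to those of Cox8b was not tested.

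Against P6 cerebella, SMB cells had 19 members lower and 1 higher (Cox8b, 1.68, adjusted p = 0.03104), with 11% of all genes called lower and 14.6% higher. The median was -0.24, against 0.08 for all genes. Complex III had the largest share, 5 of 8 lower, against 8 of 33 in complex I, 3 of 17 in complex IV, 2 of 17 in complex V and 1 assembly factor. Ndufs4 was 2.61-fold lower (-1.39, SE 0.16, adjusted p = 0.001881). Uqcrfs1, the Rieske protein, fell by 0.76 (SE 0.16), Uqcr11 by 0.74, Atp5md by 0.62, Ndufa1 by 0.61, Ndufb11 by 0.59 and Cox6b2 by 1.07. Uqcrfs1 had 12.24 in parental SMB21 replicate 1 and 11.10 to 11.31 in the other SMB21 arrays, 12.18 and 11.89 in SMB55, 11.75 and 11.78 in SMB56, against 12.50 and 12.53 at P6. Without either P6 array, Ndufs4 alone was called, and there were 12 calls without MB replicate 3 or line SMB56 and 13 without line SMB21. In SMB cells 12 of 12 microglia, 8 of 8 endothelial and pericyte, 8 of 10 neuron, 4 of 5 Purkinje cell and 5 of 9 astrocyte markers were lower than at P6, and 6 of 13 proliferation genes higher; their part was not tested. Both comparisons share the parental SMB arrays.

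Growth factors changed few members. In GF against parental cells 3 members were higher and 0 lower, with 3.97% of all genes called higher and 4.96% lower, so the share of members was at the background. Ndufa9, a complex I subunit that binds NADPH, had 13.01 in SMB21, 12.93 in SMB55 and 14.09 in SMB56 with growth factors. Without them it had 12.68, 12.59, 12.74 and 12.68 in SMB21, 12.61 and 12.32 in SMB55 and 12.64 and 12.38 in SMB56. GF arrays were above all parental arrays, SMB56 most of all, and Ndufa9 was higher by 0.77 (SE 0.17, adjusted p = 0.01228), or by 0.40 without GF SMB56. Uqcr10 had 12.29, 12.37 and 13.04 in GF cells of SMB21, SMB55 and SMB56, against 11.65 to 12.04 in parental SMB21 and SMB55 and 12.34 and 11.82 in parental SMB56 (0.60, SE 0.13, adjusted p = 0.01198). GF arrays were above the parental arrays within each line. It was not called without GF SMB56, where the difference was 0.42. Ndufs7, an iron-sulfur subunit, was higher by 0.42 (adjusted p = 0.04805), a call lost under 22 of 27 alternatives. Cox8b had 6.71, 6.47 and 6.37 in GF cells, all below the parental arrays (-1.33, SE 0.40, adjusted p = 0.05371, not called). Without GF SMB56, Ndufa9 alone was called, and with 1 mean per line and treatment there were 0 calls by limma (5 at an unadjusted p under 0.05). Of the citric acid cycle genes, 3 of 21 were higher, among them citrate synthase, Cs (0.69, SE 0.13), and Pdha1 (0.54), and Ppargc1a was higher by 2.50 (SE 0.44, adjusted p = 0.003537).

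RAS transformed cells had lower levels of respiratory chain genes than parental cells. Of the 84 members, 28 were lower and 0 higher, with 17.9% of all genes called lower and 14.1% higher. The median was -0.24, against -0.05 for all genes, and 11 members lay above 0. Complex I had 14 of 33 genes lower, complex III 3 of 8, complex IV 3 of 17, complex V 6 of 17 and assembly factors 2 of 5. Complex II had 0 of 4 called by limma, and 0 at an unadjusted p under 0.05: Sdha differed by 0.07, Sdhb by -0.24, Sdhc by -0.05 and Sdhd by 0.02. Centring the arrays gave 36 lower and 0 higher. Within each line, replicate 1 had the highest median deviation of the parental arrays. It was 0.08 in SMB21 (0.01 to 0.06 in the other replicates), 0.06 in SMB55 (-0.01 in replicate 2) and 0.22 in SMB56 (-0.08 in replicate 2). The difference from RAS cells was thus wider for replicate 1. These replicate 1 arrays were left out singly and never together.

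Cox7a2l had levels in RAS cells of 11.32, 11.55 and 12.25 in SMB21, 11.67 and 11.29 in SMB55 and 11.87 and 12.37 in SMB56. Its parental levels were 13.04, 12.36, 12.50 and 12.58 in SMB21, 13.31 and 13.41 in SMB55 and 12.57 and 12.40 in SMB56. RAS arrays were below the parental arrays within each line, and Cox7a2l was 2.03-fold lower (-1.02, SE 0.22, adjusted p = 0.00256).

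Ndufb11, a subunit of the membrane arm of complex I, had RAS levels of 12.67, 12.94 and 12.74 in SMB21, 12.04 and 12.33 in SMB55 and 12.40 and 12.43 in SMB56. Parental levels were 13.52, 13.09, 12.95 and 13.19 in SMB21, 13.43 and 13.39 in SMB55 and 13.48 and 13.09 in SMB56. Groups did not overlap, though the nearest arrays were 12.94 and 12.95 (-0.75, SE 0.13, adjusted p = 0.0005346). A pair of further subunits of that arm was apart over all arrays: Ndufb2, at 11.38 to 11.90 in RAS cells and 12.07 to 12.75 in parental cells (-0.66, SE 0.14), and Ndufb5, at 11.86 to 12.45 in RAS cells and 12.47 to 13.07 in parental cells (-0.66, SE 0.11).

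Atp5o had RAS levels of 12.85, 13.12 and 13.20 in SMB21, 12.26 and 12.74 in SMB55 and 12.67 and 12.66 in SMB56. Parental levels were 13.64, 13.54, 13.51 and 13.51 in SMB21, 13.03 and 13.12 in SMB55 and 13.51 and 13.20 in SMB56. The groups were apart within each line and overlapped across lines (-0.57, SE 0.09, adjusted p = 0.000271). Ndufa4, a complex IV subunit once assigned to complex I, was apart within each line too (-0.56, SE 0.11, adjusted p = 0.001125). Cox8b had 6.24, 6.52 and 6.44 in RAS cells of SMB21, 5.93 and 6.15 of SMB55 and 6.03 and 6.28 of SMB56, below each parental array given above (-1.59, SE 0.31, adjusted p = 0.001249).

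The remaining calls ran from -0.63 (Ndufaf1) to -0.26 (Atp5h). They were Ndufb10, Ndufaf5, Ndufv2, Ndufs5, Ndufa1, Ndufb7, Ndufa13, Ndufc2, Ndufa5, Ndufa12, Ndufb6 and Ndufs7 of complex I and its assembly, Uqcrh, Uqcrc2 and Uqcr11 of complex III, and Atp5c1, Atp5j, Atp5g3, Atp5d and Atp5h of complex V. Of 21 further probe sets of called genes, 20 had the same sign and 14 were called; the exception was of Atp5c1. Leaving out RAS SMB21 replicate 1 gave 17 calls. Arrays of a line count as separate replicates here: with 1 mean per line and treatment 1 member was called (Ndufb10, with 21 at an unadjusted p under 0.05), and the 7 genes given with levels above then had adjusted p between 0.0559 and 0.164. Proliferation genes were lower in RAS cells for 11 of 13 (summed intensity 25273 to 46375 in RAS cells, 50304 to 67299 in parental cells), neuron markers for 5 of 10 (691 to 7085 in RAS cells, 2055 to 5224 in parental cells; Nefm, a neurofilament gene, was higher by 1.55) and granule neuron markers for 4 of 8 (2681 to 12966 in RAS cells, 12130 to 21545 in parental cells). Endothelial and pericyte markers summed to 849 to 5175 in RAS cells and 319 to 477 in parental cells. The part of these in the result was not tested.

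By line, 11 members were lower and 1 higher in RAS SMB21 (10.3% of all genes lower, 9.1% higher), 22 lower and 0 higher in RAS SMB55 (10.9% lower, 10.6% higher), and 8 lower and 0 higher in RAS SMB56 (5.9% lower, 6.14% higher). All 3 share the model's estimate of the spread. The difference was below 0 in all 3 lines for 46 of the 84 members, against 33.5% of all genes. Of the 28 members lower over all lines, 26 were below 0 in each, the exceptions being Ndufc2 (0.09) and Uqcrc2 (0.24) in SMB56. These 28 were called on the same arrays, which favours differences below 0 in each line, so that count is no separate test. Atp5o was called lower in all 3 lines (-0.49 in SMB21, -0.58 in SMB55, -0.69 in SMB56), and 12 members in at least 2. Calls shared between lines were not counted over all genes, so whether these counts exceed the background is not known.

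Among called members, the largest changes in SMB21 were of Cox7a2l (-0.91), Ndufb5 (-0.75), Ndufa4 (-0.73, SE 0.12, adjusted p = 0.001526) and Ndufb9 (-0.57), while the dim Cox7a1 differed by -1.13 (adjusted p = 0.0744) and Cox8b by -0.82 (adjusted p = 0.1156), both uncalled. Uqcrb, a small subunit of complex III that binds ubiquinone, was the 1 member higher there (0.42, adjusted p = 0.02023), with 13.87, 13.99 and 13.76 in RAS cells and 13.70, 13.37, 13.36 and 13.36 in parental cells. In SMB55 Cox8b differed by -2.88 (SE 0.44, adjusted p = 0.001199) and Ndufs4 was 4.06-fold lower (-2.02, SE 0.37, adjusted p = 0.003134), followed by Cox7a2l (-1.88), Ndufb11 (-1.22), Ndufb2 (-1.18) and Ndufa3 (-1.04). Ndufs4 had 8.07 and 9.24 in RAS SMB55, against 10.87 and 10.48 in parental SMB55. Its difference was -0.06 in SMB21 and -0.23 in SMB56, and the test between lines gave an adjusted p of 0.06695. In SMB56 the 8 called were Cox8b (-1.65), Ndufaf1 (-0.98), Ndufs5 (-0.97), Ndufb11 (-0.87), Ndufa1 (-0.81), Atp5o (-0.69), Ndufa12 (-0.57) and Atp5d (-0.57).

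These counts move with single arrays. In SMB21 there were 4 calls without RAS replicate 1, 5 without RAS replicate 2, 24 without RAS replicate 3 and 7 without parental replicate 4; Cox7a2l lost its call there without RAS replicate 1 or 2, and Uqcrb without either of those or parental replicate 2, 3 or 4. In SMB55 there were 8 without parental replicate 1 and 7 without RAS replicate 1, and Ndufa3 was lost without either parental array or RAS replicate 1. In SMB56 there were 0 by limma without parental replicate 1, RAS replicate 1 or RAS replicate 2 (9, 12 and 8 members at an unadjusted p under 0.05), and 16 without parental replicate 2.

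**Figure D4:**
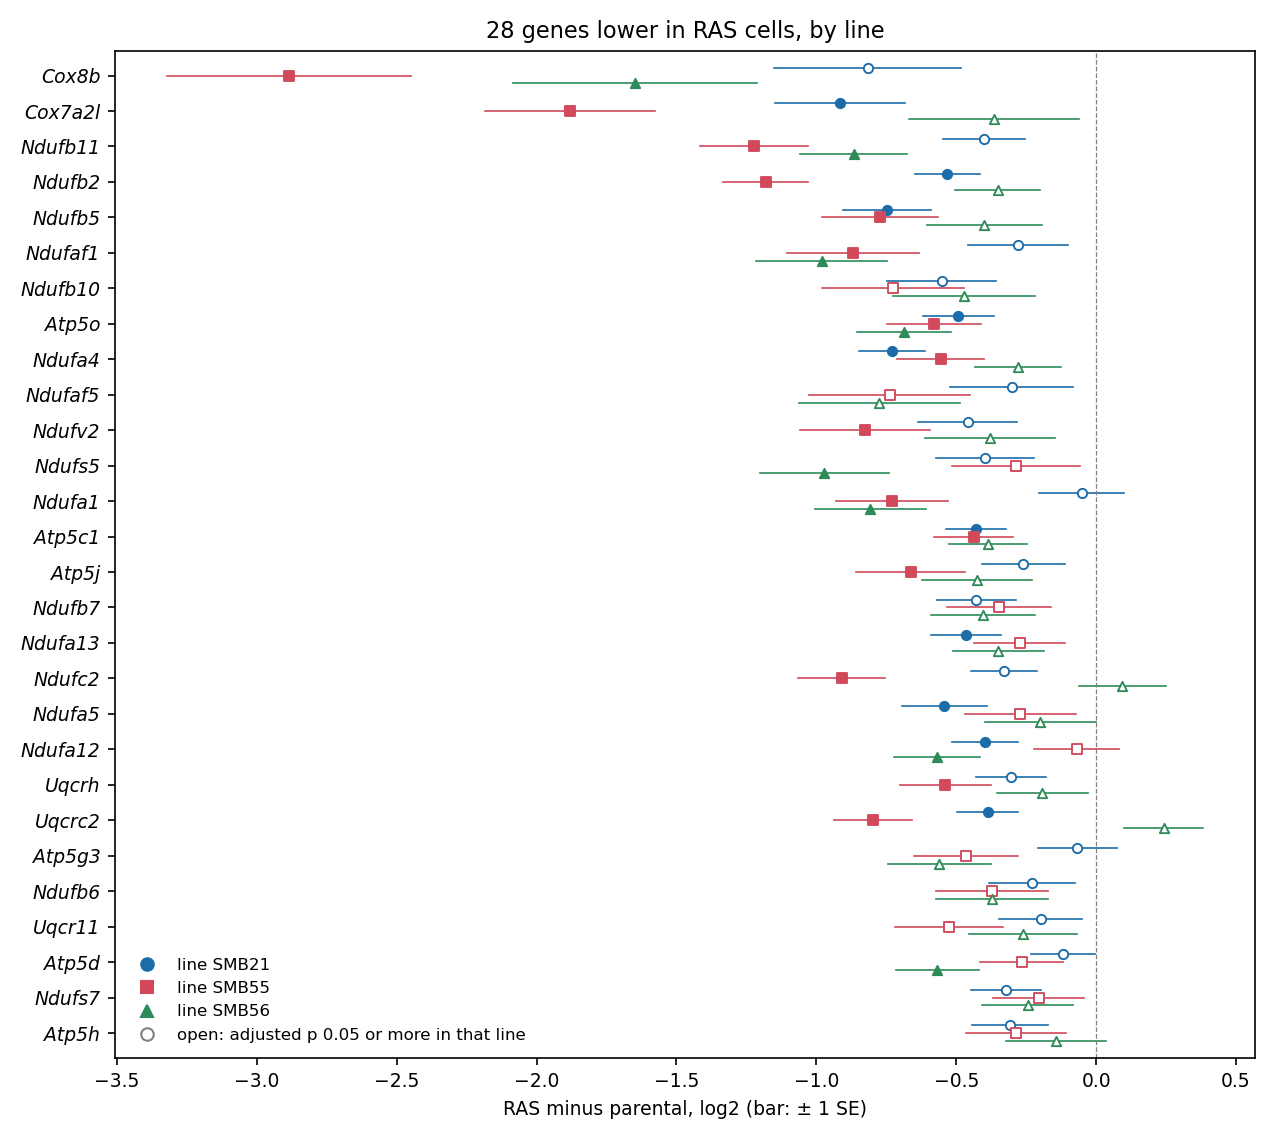
Difference between RAS and parental cells (log2, with bars of 1 SE) in SMB21, SMB55 and SMB56 for the 28 members lower in RAS cells over all lines, with open symbols where the line alone gave an adjusted p of at least 0.05. All but Ndufc2 and Uqcrc2 in SMB56 lie below 0, and Cox8b reaches -2.88 in SMB55. The 28 were called on the same arrays, which favours differences below 0.

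The response to RAS differed between lines for 1 member (1.19%), below the 3.45% of all genes that passed that test. This member was Uqcrc2, a core protein of complex III. At an unadjusted p under 0.05 it was 18 members, with no count over all genes beside it. Uqcrc2 had 12.07, 11.94 and 12.09 in RAS SMB21, 11.80 and 12.06 in RAS SMB55 and 12.42 and 12.51 in RAS SMB56. Parental levels were 12.59, 12.25, 12.41 and 12.42 in SMB21, 12.81 and 12.64 in SMB55 and 12.11 and 12.34 in SMB56. RAS arrays were below parental ones in SMB21 and SMB55 and above them in SMB56 (-0.39, -0.80 and 0.24; moderated F = 13.91, adjusted p = 0.03778). The call was lost under 12 of 25 alternatives, among them leaving out either SMB55 parental array, SMB56 parental replicate 1, SMB21 parental replicate 3 or 4, RAS SMB55 replicate 1 or either RAS SMB56 array (adjusted p between 0.02181 and 0.129 over all alternatives). There were 6 members called without SMB56 parental replicate 2, 3 without RAS SMB21 replicate 1 and 2 without RAS SMB55 replicate 2.

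Against GF cells, RAS cells had 19 members lower and 0 higher, with 5.45% of all genes called lower and 5.71% higher. The median was -0.27, against -0.04 for all genes. Complex I held 10 of the 19, complex III 3, complex V 3, complex IV 2 and the assembly factors 1. Cox7a2l differed by -1.18 (SE 0.29), Ndufb11 was 2.01-fold lower (SE of the log2 difference 0.17, adjusted p = 0.003523), Ndufb2 differed by -0.92, Ndufa9 by -0.91, Ndufv2, an iron-sulfur subunit of the NADH-binding module, by -0.72, and Ndufb10 by -0.71. Ndufb11 had 13.41, 13.63 and 13.47 in GF cells of SMB21, SMB55 and SMB56, above each RAS array given above. Parental replicate 1 had 13.52, 13.43 and 13.48 in these lines, and later parental replicates 12.95 to 13.19, 13.39 and 13.09. In sample order, each GF array follows parental replicate 1 of its line, and the RAS arrays stand among later parental replicates. Whether these sets were handled apart is not stated, so such a difference and that of RAS against GF cannot be told apart. Ndufa9, which was higher in GF cells than in parental cells, differed by -0.53 without GF SMB56. Cox7a2l lost its call without GF SMB21 or GF SMB55, Ndufb10 without GF SMB21, and Ndufb2 and Ndufv2 without GF SMB55. Without GF SMB55 there were 10 calls, and with 1 mean per line and treatment 0 by limma (26 at an unadjusted p under 0.05). This comparison shares the RAS arrays with RAS against parental cells and the GF arrays with GF against parental cells.

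Parental lines differed from each other for 4 members (4.76%), against 5.08% of all genes, so the share of members was at the background. At an unadjusted p under 0.05 there were 23 members, with no count over all genes beside it. Ndufaf3, an assembly factor, had 9.56, 8.88, 9.31 and 9.49 in SMB21, 10.42 and 10.25 in SMB55 and 9.86 and 9.99 in SMB56 (F = 19.25, adjusted p = 0.01494). Ndufs1 had 11.42, 11.78, 11.74 and 11.65 in SMB21, 10.84 and 10.70 in SMB55 and 11.0001 and 10.88 in SMB56 (F = 18.36, adjusted p = 0.01667). Both genes set SMB21 apart from the other lines, Ndufaf3 low and Ndufs1 high. Atp5j2 was higher by 0.49 in SMB55 and by 0.32 in SMB56 than in SMB21 (adjusted p = 0.04412), and Ndufs5, a complex I subunit, differed by -0.91 in SMB55 and by -0.10 in SMB56 from SMB21 (adjusted p = 0.04622). Without SMB21 replicate 3 or SMB55 replicate 2 there were 0 calls by limma (17 and 18 at an unadjusted p under 0.05), without SMB21 replicate 2, SMB21 replicate 4 or SMB55 replicate 1 there was 1, without RAS SMB21 replicate 1 or any one RAS array of SMB55 or SMB56 there were 2, and without SMB21 replicate 1 or SMB56 replicate 2 there were 7.

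**Figure D5:**
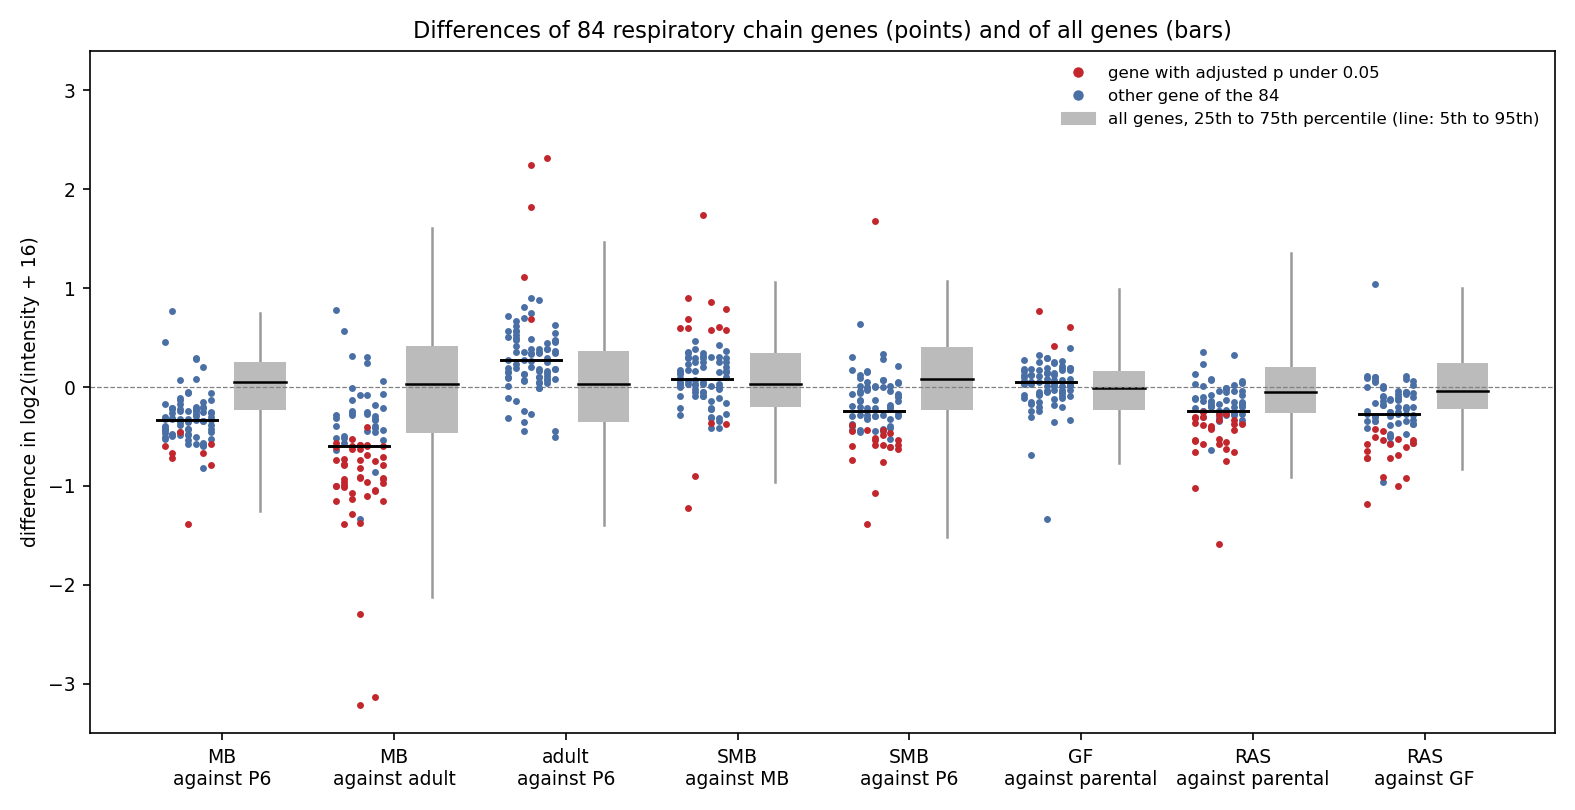
Differences of the 84 members (points, red where called) in 8 comparisons, with grey bars for the 25th to 75th and grey lines for the 5th to 95th percentile of all 12393 genes and a black line at the members' median. The median lies at -0.60 for MB against adult, -0.33 for MB against P6 and -0.24 for RAS against parental cells, and near 0 for GF against parental cells (0.05).

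Other mitochondrial genes were set beside the members in the cultures. Of all genes, 17.9% were called lower and 14.1% higher in RAS against parental cells. In SMB cells against MB, 12.4% were called higher and 8.19% lower. In RAS against parental cells, 28 of 74 mitochondrial ribosome genes were lower and 2 higher, with a median of -0.30, and Mrpl1 fell by 0.94 (SE 0.12, adjusted p = 5.744e-05). Of 21 citric acid cycle and pyruvate genes, 8 were lower and 0 higher, among them Idh3g (-0.88), the fumarase Fh1 (-0.51) and pyruvate carboxylase, Pcx (-1.51). Import and carrier genes had 10 of 27 lower and 1 higher. Other assembly factors had 7 of 27 lower and 3 higher, and biogenesis regulators 4 of 18 lower. The shares lower in these last lists were not far above that of all genes. Among the regulators, Tfam, which packages mitochondrial DNA, was at -0.39 and the transcription factor Tfb1m at -0.97. In SMB cells against MB, 24 of 74 ribosome genes were higher and 2 lower, 8 of 27 assembly factors higher and 1 lower, and 8 of 27 import genes higher and 0 lower. Mrpl38 was higher by 1.19. Direction in this comparison depends on the scaling: centring moved the share of all called genes that were higher from 60.2% to 29.1%. These lists were not counted again with centred arrays.

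The members lower in MB than in the adult cerebellum (47) and those lower in RAS than in parental cells (28) had 16 genes in common. The means compared share no array, but the parental SMB arrays also entered the spread of the tissue fit. That is 34% of the first list and 57.1% of the second, near the 56% of all 84 members that were lower in MB. The 16 were Atp5c1, Atp5d, Atp5g3, Atp5h, Cox8b, Ndufa1, Ndufa12, Ndufa13, Ndufaf1, Ndufaf5, Ndufb10, Ndufb5, Ndufb7, Ndufs7, Ndufv2 and Uqcrc2.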

How the data were processed

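RNA of 24 samples was biotin labelled and hybridized to Affymetrix mouse arrays, per the labels' protocols. The deposited table holds 1 linear intensity per probe set and array, as the authors summarised and normalised it, by a method not given in the sources used here. Values run between 10.0 and 37842.0, and the medians of the arrays between 188.8 and 245.1. An array has no read depth, and the number of arrays limits the precision.

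Of 22690 probe sets, 20380 had 1 gene symbol, 691 several and 1619 none, and 64 were controls; only those with 1 symbol were used. Each gene kept the probe set of highest mean signal, which left 12393 genes (4956 with several probe sets). By gene identifier 12369 matched the GRCm38.p6 table, and 0 symbols changed. Of the 84 members, 45 had several probe sets, 18 use a probe set that can bind other transcripts (suffix s or x) and 29 one shared by variants of a gene (suffix a), and 8 further probe sets of members with several symbols were left out.

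Values were log2(intensity + 16). Two-sided moderated tests (lmFit and eBayes of limma 3.58.1, R 4.3.3) were adjusted by Benjamini-Hochberg over 12393 genes. Tissues were fitted as P6 (2), adult (1), MB (3) and parental SMB as 1 mean per line (3). Cultures were fitted as 18 arrays with treatment and line as terms. A fit with a mean for each combination of line and treatment gave the values per line and the F tests between lines. Tests were tried on simulated data first. Tables and figures used Python 3.11.15, pandas 2.3.3 and matplotlib 3.10.9.

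Named in each comparison were the 6 largest rises and 6 largest falls among called members whose higher mean reaches the median gene (8.36) and without overlap of arrays between groups (for cultures, in each line). The core subunits and tissue isoforms were always named, and so were up to 3 called genes of each other list by smallest p; beyond these, names complete a count or were chosen after values were seen. Members and lists were chosen with earlier results of these data known.

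Correlations of same-numbered deviations showed no pairing by replicate number for RAS and parental cells (-0.15 to -0.02) or for MB and P6 (-0.03 and 0.01). For GF and parental cells they were 0.06, -0.37 and -0.39. These cannot decide about pairing, because the deviations sum to 0 within a line there, which pulls the correlations below 0. Alternatives were other pseudocounts, normalisations, filters, probe set rules, groups fitted, blocks and each array left out.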

Additional observations from a re-analysis of the deposited data

Results flagged for a closer look

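Within the 4 parental SMB21 arrays, 9 of 52 members tested had 1 array far from the other 3, where chance gives about 1 in 20 groups; 7 of the 9 were replicate 1, the array that stood apart over all genes. Replicate 1 was high for Atp5md (12.548), Ndufb5 (13.0392), Ndufv1 (12.0153) and Uqcrb (13.6993), and low for Atp5g3 (13.2337), Ndufa1 (12.8514) and Sdhd (11.4349). The other 3 arrays lay between 11.82 and 11.91 for Atp5md, 12.68 and 12.72 for Ndufb5, and 13.36 and 13.37 for Uqcrb. Cox6b2 was low in replicate 3 (6.1242), and Ndufa7 in replicate 2 (13.1545).

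The response of Uqcrc2 to RAS differed between lines (adjusted p = 0.03778 for limma's F test): -0.39 in SMB21, -0.80 in SMB55 and 0.24 in SMB56. The RAS arrays were below the parental ones in the first pair of lines and above them in SMB56.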

How the results depend on the processing

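Of 97 named calls, 0 reversed under any of 2074 alternative values, 1711 stayed called and 363 did not; 22 calls held under each alternative run. The limits are 1 adult array, P6 arrays more alike than any other pair, and 1 GF array per line. Counts below are of members called, with the count of the main setting in brackets; the cause of each change was not tested. With the numbers of the replicates as a replicate block (a paired fit), they were 0 for MB against P6 (8; 20 at an unadjusted p under 0.05), 0 for GF (3; 4 unadjusted), 18 for RAS (28) and 1 for RAS against GF (19). With 1 mean per line and treatment they were 0 for GF (5 unadjusted), 1 for RAS and 0 for RAS against GF (26 unadjusted). With P6 as 1 sample, chosen after seeing the data, they were 0 for MB against P6 (17 unadjusted), 2 for adult against P6 (5) and 1 for SMB against P6 (20). With only the groups compared, they were 16 for MB against P6, 26 for MB against adult (47), 41 for adult against P6, 8 for SMB against MB (14), 9 for SMB against P6 and 12 for RAS against GF. With line as a random block, MB against P6 and adult against P6 gave 3 each. With P6 and adult as 1 normal group MB gave 13. With arrays centred on their medians, MB gave 2 against P6 and 29 against adult, and the mean of all probe sets gave 8 for adult against P6. The difference in RAS response between lines (1) gave 0 with no pseudocount, centred arrays, the genes below the 25th percentile left out or the mean of all probe sets (17, 13, 15 and 16 unadjusted), and differences between parental lines (4) gave 2 with no pseudocount.

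Leaving out 1 array or line at a time gave 0 to 13 for MB against P6, 28 to 50 for MB against adult, 2 to 9 for adult against P6, 8 to 14 for SMB against MB, 1 to 22 for SMB against P6, 1 to 4 for GF, 17 to 31 for RAS, 10 to 22 for RAS against GF, 4 to 24, 7 to 27 and 0 to 16 for RAS in SMB21, SMB55 and SMB56, 0 to 6 for the difference in RAS response and 0 to 7 for parental lines. Centring moved the share of all called genes that were higher from 39.2% to 61.5% for MB against P6, from 60.2% to 29.1% for SMB against MB, from 44.1% to 33.7% for RAS, from 51.2% to 35.7% for RAS against GF and from 51.0% to 36.9% for RAS in SMB56; quantile normalisation gave 52.7%, 52.8%, 39.4%, 45.1% and 43.7%.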
